A study of Homo sapiens with 12 samples.

Results

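Lenalidomide and the RUNX inhibitor AI-10-104 were compared directly with each other in OPM-1 cells, a human multiple myeloma line, by the 6 of the study's 12 samples that received 1 drug alone. The 3 LEN samples were treated with 0.1 μM lenalidomide and the 3 RUNXi samples with 1 μM AI-10-104, in both cases for 48 h, so the 2 drugs were given at doses that differ and neither dose is matched to the other. The remaining samples were 3 DMSO samples, which received solvent, and 3 LEN+RUNXi samples, which received both drugs at those doses. All samples were biological replicates of 1 line, so the p-values describe the spread between cultures of OPM-1 and not between myelomas. Polyadenylated RNA was sequenced and expression was given as RPKM, reads on a gene scaled by its length and by the library's reads counted on genes. Of the 38478 genes in the file, 11241 averaged 0.5 RPKM or more across the 12 samples and were tested, and 27237 fell below that level.

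Lenalidomide binds cereblon, the substrate receptor of a CUL4 ubiquitin ligase, and turns it on the zinc finger transcription factors IKZF1 and IKZF3, which myeloma cells need and which are then degraded. Downstream of these factors lie IRF4 and MYC, and loss of IKZF1 and IKZF3 is known to raise interferon-stimulated genes. RUNX1, RUNX2 and RUNX3 are DNA-binding factors of blood cell development that bind DNA tightly only together with their partner CBFβ, and AI-10-104 blocks that association. The 2 drugs thus act on different proteins, and a direct contrast of LEN with RUNXi asks which genes separate the responses, leaving out what both drugs change alike against DMSO.

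The libraries held 19442512 to 30478783 reads on genes in the 6 LEN and RUNXi samples. The median spread between replicates was 0.0659 in LEN and 0.074 in RUNXi, as an SD on the log2(RPKM + 0.1) scale. Replicate 2 of RUNXi stood apart from its group, with 639 genes more than 0.3 log2 from the group median against 354 to 445 genes in each of the other 5 samples. The samples carried plasma cell markers, 11 of 14 at 0.5 RPKM or more, among them SDC1, TNFRSF17, IRF4, PRDM1 and JCHAIN, while CD27, FCRL5 and CD79A were under that level. None of 7 markers of T and NK cells, 5 of mature B cells and 8 of myeloid cells reached 0.5 RPKM. Of 10 stromal, epithelial, endothelial and erythroid markers only HBB did, at 19.5 to 21.2 RPKM in LEN and 18.2 to 19.6 RPKM in RUNXi.

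More genes were higher with lenalidomide than with the RUNX inhibitor. A call required an adjusted p-value no higher than 0.05 (limma, Benjamini-Hochberg over all genes tested) and a log2 difference of 0.32 or more in size, and 446 of 11241 genes (3.97%) met both criteria. Of these, 307 (2.73% of the genes tested) were higher in LEN and 139 (1.24%) were higher in RUNXi. In bulk RNA, fewer cells with a transcript and less of it per cell cannot be told apart. The differences were mostly moderate, with a median size of 0.47 on the log2 scale among called genes, and 30 called genes exceeded 1, 19 in LEN and 11 in RUNXi. The median over all genes tested was −0.007, so the 2 groups were centred alike. The 3 LEN values lay wholly above or below the 3 RUNXi values for 434 of the 446 called genes, a separation that 3612 of all tested genes (32.1%) had. Without a required size, 780 genes passed in favour of LEN and 766 in favour of RUNXi. The numbers of calls depended on single libraries. Without RUNXi replicate 2 they were 477 and 215, and without RUNXi replicate 1 they were 221 and 89. The gene lists used below were set with earlier results of these data known. The share of a list that was called is therefore a description and not a test.

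**Figure D1:**
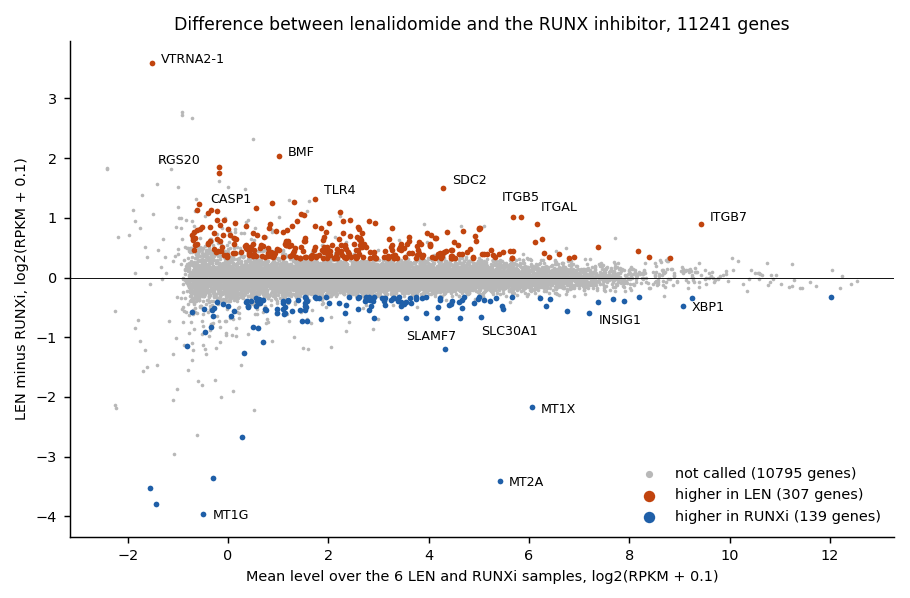
Difference between LEN and RUNXi for the 11241 genes tested (vertical axis, LEN minus RUNXi on the log2(RPKM + 0.1) scale) against the mean level over the 6 samples (horizontal axis, same scale). Each point is a gene, coloured where it was called. MT2A, MT1X and MT1G lie far below 0, as do 4 genes of small RNAs that rest on few reads, and BMF and SDC2 lie above 0.

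Metallothioneins, small cysteine-rich proteins that bind zinc and copper ions, gave the widest separation of the 2 drugs. The factor MTF1 senses free zinc and switches on their genes through metal response elements, short DNA motifs with the cores TGCACNC and TGCGCNC. The 3 tested metallothionein genes lie close together on chromosome 16, MT2A at chr16:56608584-56609497, MT1G at chr16:56666730-56668065 and MT1X at chr16:56682470-56684196 (GRCh38, GENCODE 44). MT2A was at 13.1, 12.9 and 13.1 RPKM in the LEN samples and at 143, 144 and 130 RPKM in the RUNXi samples. The groups were far apart and the level in RUNXi was 10.6-fold that in LEN, a log2 difference of −3.40 ± 0.07 (LEN minus RUNXi, SE, n = 3 per group; limma adjusted p = 1.6e-10). MT1X stood at 30.9, 33.4 and 29.5 RPKM in LEN and at 137, 154 and 131 RPKM in RUNXi. This is a 4.49-fold difference, with a log2 difference of −2.17 ± 0.08 (limma adjusted p = 2.6e-08). The DMSO samples held 15.4, 19.3 and 15.5 RPKM of MT2A and 36.0, 32.7 and 28.2 RPKM of MT1X, near the LEN values. The samples given both drugs held 149 to 155 RPKM of MT2A and 164 to 166 RPKM of MT1X, near the RUNXi values.

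The weakly expressed members pointed the same way on few reads. MT1G had 0, 6 and 0 reads in the LEN libraries and 29, 39 and 18 reads in the RUNXi libraries. Its summed reads, scaled to the library totals, were 15 times as high in RUNXi, with a 95% interval of 6.6 to 41.9 that covers counting error only (exact binomial), and it was called (limma adjusted p = 0.0015). MT1E fell below the level required for testing, with 0, 0 and 1 reads in LEN against 18, 11 and 9 in RUNXi. Metallothionein genes share much of their sequence, and reads could be split between them, so the values of single members are less certain than their common direction. Of the 14 listed genes 4 were tested and 3 were called, all higher in RUNXi, 75.0% of those tested beside 3.97% of all genes. The other 10 fell below the filter. MT1G passed the filter only through the samples given the RUNX inhibitor, with means of 2.78 RPKM in RUNXi and 3.6 RPKM in LEN+RUNXi. Its means were 0.162 RPKM in LEN and 0.0386 RPKM in DMSO, so its place in this count and in the list median is not independent evidence. The median LEN minus RUNXi difference of the 4 was −2.78, against −0.007 over all genes tested. MTF1, the fourth gene tested, was at 5.64, 5.75 and 6.05 RPKM in LEN and at 5.46, 5.75 and 6.10 RPKM in RUNXi, with overlapping groups and a 95% interval of the log2 difference of −0.11 to 0.13. The 3 calls held under each alternative setting and in the absence of each library.

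Among zinc transporters the exporter SLC30A1 was higher in RUNXi. This plasma membrane protein moves zinc out of the cell, and its gene is another known MTF1 target. SLC30A1 was at 25.6, 27.7 and 25.1 RPKM in LEN and at 39.4, 40.9 and 43.6 RPKM in RUNXi, with no overlap. The difference was 1.58-fold, −0.66 ± 0.05 on the log2 scale (LEN minus RUNXi; limma adjusted p = 1.2e-05). It was the 1 call among 15 tested genes of zinc transport, 6.67% beside 3.97% of all genes. The importer SLC39A10 was also lower in every LEN sample, at 6.13, 6.20 and 6.12 RPKM against 7.38, 7.39 and 7.22 RPKM, but its log2 difference of −0.25 (limma adjusted p = 0.0016) was under the size required for a call. The median difference of the list was −0.09.

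The 250 bases before the transcription start of MT2A, MT1X and SLC30A1 are shown because these genes were higher in RUNXi together and share MTF1 as a known regulator with a short motif. Capitals mark each match to TGCACNC or TGCGCNC on either strand. All are written 5′ to 3′ on the gene's strand, from RefSeq on GRCh38.p14, MT2A from chr16:56608334-56608583 (plus strand), MT1X from chr16:56682220-56682469 (plus strand) and SLC30A1 from chr1:211579162-211579411 (minus strand). No promoter of MT1G was matched.
MT2A: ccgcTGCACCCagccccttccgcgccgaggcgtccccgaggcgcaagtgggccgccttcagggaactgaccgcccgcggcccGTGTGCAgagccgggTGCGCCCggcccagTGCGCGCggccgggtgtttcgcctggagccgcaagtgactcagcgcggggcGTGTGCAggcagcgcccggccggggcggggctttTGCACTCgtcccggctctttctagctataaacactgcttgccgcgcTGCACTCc
MT1X: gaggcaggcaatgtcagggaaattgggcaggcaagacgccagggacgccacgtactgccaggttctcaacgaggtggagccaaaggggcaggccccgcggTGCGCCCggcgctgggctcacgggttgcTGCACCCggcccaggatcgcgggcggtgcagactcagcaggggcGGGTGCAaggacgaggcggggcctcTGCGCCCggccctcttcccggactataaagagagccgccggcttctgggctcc
SLC30A1: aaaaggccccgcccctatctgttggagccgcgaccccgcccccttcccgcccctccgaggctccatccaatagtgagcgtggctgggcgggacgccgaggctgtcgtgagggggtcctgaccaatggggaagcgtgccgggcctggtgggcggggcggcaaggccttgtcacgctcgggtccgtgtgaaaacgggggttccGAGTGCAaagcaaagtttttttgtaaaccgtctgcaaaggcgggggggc
MT2A held 7 matches, MT1X 4 and SLC30A1 1. At least 1 match was present in 24.7% of all 27305 promoters of this length, at least 4 in 0.366% and at least 5 in 0.121%. A single match, as before SLC30A1, was therefore common, whereas the density before MT2A and MT1X was rare among all promoters. Promoters of tested genes held at least 1 match more often, and their shares with at least 4 or 5 were not computed. Among called genes with a promoter, 33.7% of those higher in RUNXi and 32.7% of those higher in LEN held at least 1 match, beside 34.3% of all tested genes. A match is a stretch of letters and not evidence of binding, and TGCACNC and TGCGCNC can match the same bases on both strands, in which case both were counted.

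**Figure D2:**
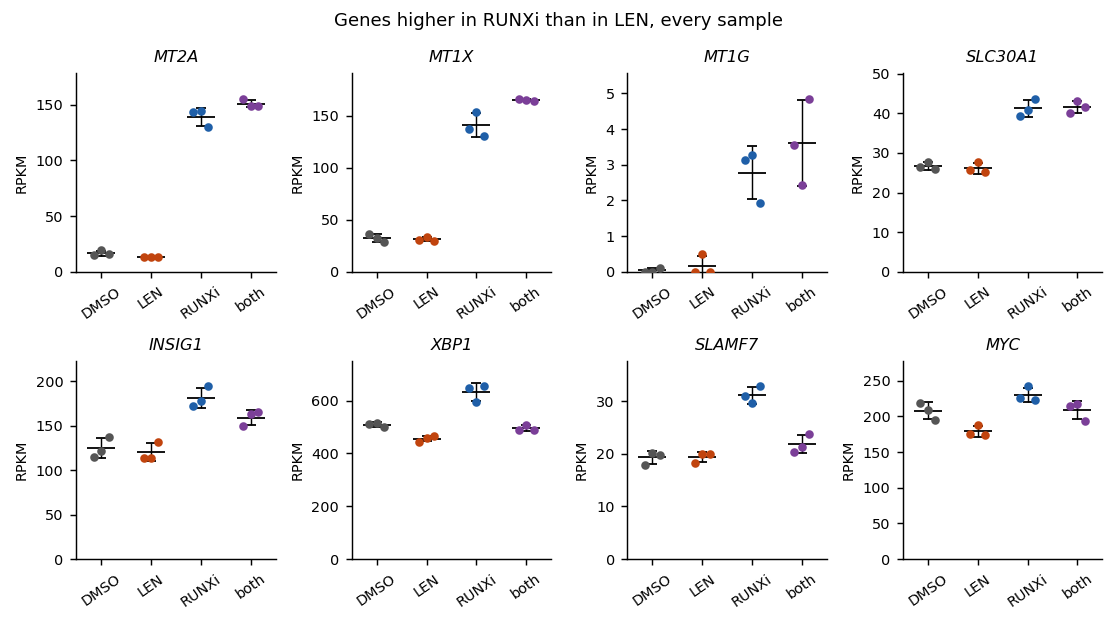
RPKM of 8 genes higher in RUNXi than in LEN (vertical axes start at 0), for the 3 replicates of each of the 4 groups as points, with the mean and SD as bars. "Both" is LEN+RUNXi. The metallothioneins and SLC30A1 are as high with both drugs as in RUNXi, while SLAMF7 and XBP1 with both drugs lie near the DMSO values.

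In sterol synthesis 8 genes were called higher in RUNXi than in LEN, by small differences. The SREBP2 pathway makes cholesterol from acetyl-CoA, and INSIG1, a target of that pathway, holds the SREBP complex back when sterols are plentiful. The list had 24 tested genes, of which 16 were not called and 0 were called higher in LEN (limma), so 33.3% of the list was called beside 3.97% of all genes. At an unadjusted p under 0.05, 19 genes were higher in RUNXi and 0 in LEN, and voom on reads called 9 and 0. The share of all genes under that unadjusted p was not computed. The differences were negative for 21 of the 24 genes, with a median of −0.28. INSIG1 led the list, at 114, 114 and 132 RPKM in LEN and 172, 178 and 194 RPKM in RUNXi. These groups did not overlap, and the level in RUNXi was 1.52-fold that in LEN (log2 difference −0.60 ± 0.08, limma adjusted p = 0.00047). HMGCS1, which makes HMG-CoA, was at 17.1, 18.2 and 18.8 RPKM in LEN and at 22.9, 25.3 and 26.1 RPKM in RUNXi (log2 difference −0.46, limma adjusted p = 0.0017). IDI1, an isomerase of the isoprenoid steps, was 1.34-fold higher in RUNXi.

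Among the further calls of the sterol list, MSMO1, SQLE, CYP51A1 and ACAT2 had log2 differences of −0.39 to −0.32. The transcription factor gene SREBF2 was not called, with a log2 difference of −0.07 (95% interval −0.15 to 0.01). The count of 8 rested in part on single libraries, since it was 4 without RUNXi replicate 3, where SQLE, ACAT2 and MSMO1 were among those no longer called, 5 without LEN replicate 1 and 9 without RUNXi replicate 2. INSIG1, HMGCS1 and IDI1 kept their calls without each of the libraries. In fatty acid synthesis, 1 of 8 tested genes was called, 12.5% beside 3.97% of all genes. This was the desaturase SCD, at 138 to 153 RPKM in LEN and 182 to 204 RPKM in RUNXi (log2 difference −0.41, limma adjusted p = 0.00033). FASN, the fatty acid synthase, had a log2 difference of −0.16 and was not called (95% interval −0.29 to −0.04). Against DMSO the median of the sterol list was 0.24 for RUNXi and −0.06 for LEN, values that share the DMSO samples.

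Plasma cell surface and identity genes split by gene. SLAMF7, the surface receptor that elotuzumab binds, was at 18.2, 19.9 and 19.9 RPKM in LEN and at 31.0, 29.6 and 32.8 RPKM in RUNXi. The RUNXi samples were all higher, by 1.61-fold (log2 difference −0.68 ± 0.06, limma adjusted p = 6.4e-05). XBP1, the transcription factor of the unfolded protein response and of plasma cell secretion, was at 444, 459 and 465 RPKM in LEN and at 649, 594 and 654 RPKM in RUNXi (log2 difference −0.47 ± 0.04, limma adjusted p = 2.6e-05). It was the 1 call among 27 tested genes of ER folding and the unfolded protein response, whose median was −0.02. This share of 3.7% is near the 3.97% of all genes. With both drugs SLAMF7 was at 20.4 to 23.7 RPKM and XBP1 at 487 to 508 RPKM, below every RUNXi sample. CD38, which daratumumab binds, did not separate, at 30.6 to 32.5 RPKM in LEN and 30.6 to 33.1 RPKM in RUNXi (95% interval of the log2 difference −0.09 to 0.10). TNFRSF17, the BCMA gene, had a log2 difference of −0.18 (limma adjusted p = 0.0074), which is under the size required. Of 24 tested surface and therapy target genes, SLAMF7 was the call in favour of RUNXi and ITGB7 the call in favour of LEN. Together they are 8.33% of that list, beside 3.97% of all genes.

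The transcription factor genes around IKZF1 and IKZF3 gave 3 calls. Lenalidomide acts on the IKZF proteins, which were not measured here. IKZF3 mRNA was at 25.5, 25.9 and 25.9 RPKM in LEN and at 18.3, 20.1 and 17.3 RPKM in RUNXi. No values overlapped, and LEN was 1.39-fold higher (log2 difference 0.47 ± 0.05, limma adjusted p = 0.00016). Beside DMSO, at 22.4 to 23.3 RPKM, the RUNXi samples were lower (log2 difference −0.30, limma adjusted p = 0.007) and the LEN difference of 0.17 did not pass the test. IKZF1 was at 14.2 to 15 RPKM in LEN and 14.2 to 14.7 RPKM in RUNXi, with an interval of the log2 difference of −0.10 to 0.10. MYC, the proliferation factor below IKZF1 and IRF4, was at 175, 188 and 174 RPKM in LEN and at 226, 242 and 223 RPKM in RUNXi. The RUNXi level was 1.28-fold that of LEN (log2 difference −0.36 ± 0.06, limma adjusted p = 0.0017), with DMSO between them at 195 to 219 RPKM. Neither drug passed the test against DMSO for MYC. The log2 differences were −0.21 in LEN and 0.15 in RUNXi (limma adjusted p = 0.12 and 0.15). IRF4 overlapped between the groups (95% interval −0.23 to 0.04). SPIB, a further lymphoid factor, was higher in RUNXi by 0.40 at an adjusted p of 0.05 (limma), a call that was lost without LEN replicate 3 (log2 difference −0.31, limma adjusted p = 0.15) and also without each of the other LEN and RUNXi libraries. IKZF3, MYC and SPIB were the calls among 12 tested genes of the IKAROS, IRF4 and MYC list, 1 higher in LEN and 2 higher in RUNXi. That is 25.0% of the list beside 3.97% of all genes.

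CRBN, the cereblon gene, did not pass the test. It was at 5.73 to 6.09 RPKM in LEN and 6.17 to 6.58 RPKM in RUNXi, higher in each RUNXi sample, with a log2 difference of −0.13 (95% interval −0.27 to 0.01). Among 16 tested genes of the ligase and its known substrates, the calls were IKZF3 and ZNF653, both higher in LEN. They are 12.5% of the list beside 3.97% of all genes. ZNF653, at 2.87 to 3.53 RPKM in LEN and 2.29 to 2.65 RPKM in RUNXi, was no longer called without RUNXi replicate 3 (log2 difference 0.29, limma adjusted p = 0.08), and the same held without LEN replicate 2 or RUNXi replicate 1.

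RUNX genes themselves gave 1 call, on the threshold. RUNX1 was at 8.08, 7.87 and 7.65 RPKM in LEN and 6.14, 6.73 and 5.96 RPKM in RUNXi, a log2 difference of 0.32 ± 0.06 (limma adjusted p = 0.0054) with no overlap. The call was lost without LEN replicate 1, RUNXi replicate 1 or RUNXi replicate 3, where the difference was 0.29 to 0.31. RUNX3 had a log2 difference of 0.14 (95% interval 0.03 to 0.25) and CBFB, which encodes the partner CBFβ, of 0.00 (95% interval −0.11 to 0.12). RUNX1 was the 1 call among 13 tested genes of RUNX factors and cofactors, 7.69% beside 3.97% of all genes. Of 16 genes that RUNX factors are reported to regulate in blood cells only 4 were expressed enough to be tested, and ITGAL was the 1 called. With so few genes this share of 25.0% says little beside the 3.97% of all genes. The core of the RUNX site, TGTGGT on either strand, occurred in the 250 bases before the start in 10.0% of the genes higher in LEN (22 of 220 with a promoter), in 3.37% of those higher in RUNXi (3 of 89), in 7.37% of all tested genes and in 10.9% of all promoters.

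Adhesion genes separated the drugs in both directions. Of 20 tested genes, 6 were called higher in LEN and 2 higher in RUNXi, 40.0% of the list beside 3.97% of all genes. The list was set with earlier results of these data known, and the filamin regulator FAM101B is among the 6. The share therefore describes this list and does not test adhesion genes as a group. ITGB7, which pairs with ITGA4 as a homing integrin of plasma cells, was at 926, 951 and 923 RPKM in LEN and 482, 535 and 498 RPKM in RUNXi. The LEN level was 1.85-fold higher (log2 difference 0.89 ± 0.04, limma adjusted p = 1.2e-07). ITGAL, the α subunit of a leukocyte integrin, was at 95.5, 98.6 and 98 RPKM in LEN and 50.8, 51.6 and 54.0 RPKM in RUNXi (1.87-fold, limma adjusted p = 4.4e-08). ITGB2, the gene of its β subunit, had 0 reads in every library. ITGB5, a partner of the αV integrin, was at 74.8, 72.1 and 70.8 RPKM against 34.9, 37.3 and 35.8 RPKM (2.01-fold, limma adjusted p = 4.4e-08). For ITGB7, ITGAL and ITGB5 the 3 LEN samples lay far above the 3 RUNXi samples. The log2 differences from DMSO of ITGB7, ITGAL and ITGB5 were 0.29, 0.20 and 0.22 in LEN and −0.59, −0.70 and −0.79 in RUNXi, 2 sets of values that share the DMSO samples. ITGA4 did not separate the drugs, at 38.1 to 39.7 RPKM in LEN and 35.6 to 38.6 RPKM in RUNXi.

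FAM101B, a filamin regulator now named RFLNB, was near DMSO in RUNXi and above it in LEN, with 10.8, 9.10 and 9.21 RPKM in LEN, 5.27, 5.29 and 4.47 RPKM in RUNXi and 4.84 to 5.98 RPKM in DMSO (log2 difference between the drugs 0.94, limma adjusted p = 0.00011). The cadherin gene CDH2 was also called higher in LEN, at 0.34 on the log2 scale, and was not called without LEN replicate 3 or RUNXi replicate 1 (0.31). ITGA6, a laminin-binding integrin, and ALCAM, an adhesion molecule of the immunoglobulin family, were higher in RUNXi by 0.39 and 0.37. ALCAM lost its call without LEN replicate 1 or 2 or RUNXi replicate 1 or 3 (limma adjusted p of 0.053 to 0.076). The 2 calls higher in RUNXi were 0 with a pseudocount of 1, and 4 with no variance trend, with voom on reads or with a mean of at least 10 reads, each beside 6 higher in LEN. Without LEN replicate 3 the list gave 4 calls higher in LEN and 3 higher in RUNXi.

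**Figure D3:**
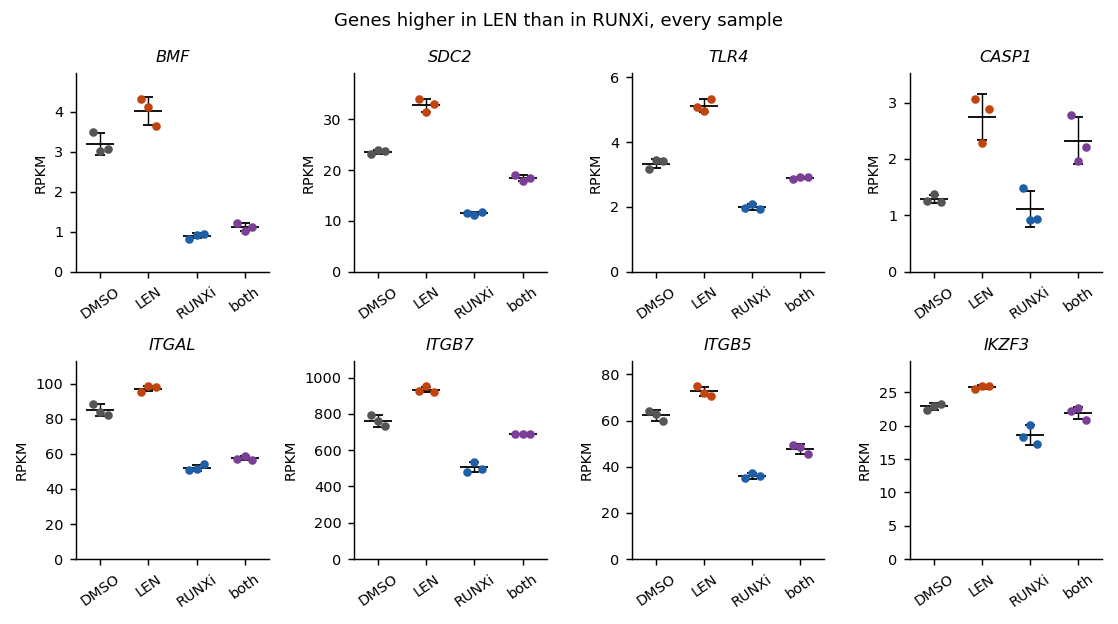
RPKM of 8 genes higher in LEN than in RUNXi (vertical axes start at 0), for the 3 replicates of each of the 4 groups as points, with the mean and SD as bars. "Both" is LEN+RUNXi. BMF, SDC2 and the integrin genes are below DMSO in every RUNXi sample, whereas CASP1 is near DMSO in RUNXi and above it in LEN.

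BMF, a BH3-only protein that promotes apoptosis by binding BCL2 proteins, was the protein-coding gene with the largest difference in favour of LEN. It lies at chr15:40087890-40108892 on the minus strand. BMF was at 4.31, 4.11 and 3.63 RPKM in LEN, at 0.827, 0.929 and 0.949 RPKM in RUNXi and at 3.01 to 3.5 RPKM in DMSO. LEN was thus 4.11-fold above RUNXi (log2 difference 2.04 ± 0.09, limma adjusted p = 1e-07). With both drugs BMF stayed at 1.01 to 1.21 RPKM, below every DMSO and LEN sample. It was the 1 call among 13 tested genes of the BCL2 family (7.69%, beside 3.97% of all genes), whose median was −0.06. BCL2L11, the BH3-only gene BIM, had a log2 difference of −0.14 (95% interval −0.26 to −0.01) that did not pass the test.

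Further large differences in favour of LEN were in genes of varied function. SDC2, a heparan sulfate proteoglycan, was at 34.0, 31.4 and 33.0 RPKM in LEN and 11.5, 11.2 and 11.7 RPKM in RUNXi, on either side of DMSO at 23.1 to 23.9 RPKM. The ratio was 2.84 (log2 difference 1.5 ± 0.04, limma adjusted p = 6.5e-10). TLR4, the receptor for bacterial lipopolysaccharide, was at 5.10, 4.95 and 5.33 RPKM in LEN and 1.96, 2.10 and 1.94 RPKM in RUNXi, also with DMSO between them (2.49-fold, limma adjusted p = 4.4e-08). RGS20, which speeds GTP hydrolysis by G proteins, was at 1.35, 1.80 and 1.57 RPKM in LEN and at 0.322 to 0.417 RPKM in RUNXi (3.59-fold, limma adjusted p = 1.9e-05). RGS20 was the 1 call of 10 tested RGS genes, 10.0% beside 3.97% of all genes. C3AR1, the receptor of complement C3a, differed 2.25-fold, and HGF, the growth factor ligand of MET, differed 2.21-fold at levels under 1 RPKM in every sample. The protease inhibitor TIMP1, the peptidase CPQ, CDC42EP4, a CDC42 effector, and LGALS17A, a galectin pseudogene, were 2.12-fold to 2.40-fold higher in LEN. These genes and LOC102724548 kept their calls without each single library.

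Several of the 15 largest differences in each direction rested on very few reads. VTRNA2-1, a vault RNA, had 2, 2 and 7 reads in LEN and 0 in all RUNXi libraries. Scaled to the library totals, its LEN reads were 3.51 times a floor of 3 reads over the RUNXi group. This value leaves out the counting error of the LEN reads and is not a lower limit. SNORA2A had at most 6 reads in any LEN or RUNXi library, and SNORD111, MIR3192, MIR6859-1 and SNORD91B had at most 8. ANP32D, called higher in LEN, had 9 to 13 reads in LEN and 3 to 5 in RUNXi. It was no longer called without RUNXi replicate 1 (log2 difference 1.00, limma adjusted p = 0.091), nor without LEN replicate 1 or 3. The calls of SNORD111, MIR3192, MIR6859-1 and SNORD91B, SOCS2-AS1, SEMA4A and LOC105375817 were likewise lost without RUNXi replicate 1, at limma adjusted p-values of 0.069 to 0.11. HIST1H4C, a histone H4 gene, was at 37.0, 18.9 and 39.3 RPKM in RUNXi and 9.51 to 15.8 RPKM in LEN, with RUNXi replicate 2 far below the other RUNXi samples. Without RUNXi replicate 1 its log2 difference was −1.04 and it was not called (limma adjusted p = 0.068), and the call was also lost without LEN replicate 2 or RUNXi replicate 3. Among the largest differences in favour of RUNXi, the calls of SCAMP5, CCDC110, NUDT7 and LOC101059954 held without each library, at 1.65-fold to 1.77-fold.

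Interferon-gamma and inflammasome genes gave 5 calls among 33 tested genes, each of them higher in LEN, 15.2% of the list beside 2.73% of all genes tested that were higher in LEN. The median difference of the list was 0.07. CASP1, the protease of the inflammasome, was at 3.06, 2.28 and 2.88 RPKM in LEN and 1.49, 0.920 and 0.929 RPKM in RUNXi (2.38-fold, log2 difference 1.25 ± 0.18, limma adjusted p = 0.001). IL10RA, a subunit of the interleukin-10 receptor, was at 7.59 to 8.23 RPKM in LEN and 4.22 to 4.79 RPKM in RUNXi (1.76-fold). APOL6 and APOL3, interferon-inducible apolipoproteins L, were 1.38-fold and 1.37-fold higher in LEN. For APOL3 both drugs were above DMSO, with 2.66 to 2.96 RPKM in LEN, 1.86 to 2.11 RPKM in RUNXi and 1.33 to 1.69 RPKM in DMSO. SOCS3, a feedback inhibitor of cytokine receptors, was called at a log2 difference of 0.51, a call that was lost without LEN replicate 1 or 2 or RUNXi replicate 3 (limma adjusted p of 0.054 to 0.071). The other 4 calls of the list held without each single library.

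In the antiviral interferon list, 2 of 30 tested genes were called higher in LEN and 1 higher in RUNXi, 10.0% of the list beside 3.97% of all genes, and 22 of the 30 differences were positive, with a median of 0.17 beside −0.007 over all genes. BST2, the antiviral surface protein tetherin, was at 205, 195 and 197 RPKM in LEN and 137, 142 and 136 RPKM in RUNXi (1.44-fold, log2 difference 0.52 ± 0.04, limma adjusted p = 1.1e-05). IFITM1, which blocks viral entry, was at 6.20 to 8.97 RPKM in LEN and 4.53 to 5.12 RPKM in RUNXi and lost its call without RUNXi replicate 1 (log2 difference 0.63, limma adjusted p = 0.078), and likewise without LEN replicate 1 or 2. SAMD9, an antiviral factor, ran the other way, at 9.61 to 10.6 RPKM in LEN and 12.3 to 14.1 RPKM in RUNXi (log2 difference −0.41, limma adjusted p = 0.002). STAT2 and IRF9, which belong to an interferon-activated transcription factor complex, were higher in LEN by less than the size required, by 0.28 and 0.30 on the log2 scale. Their limma adjusted p-values were 0.0018 and 0.022. The count higher in LEN was 4 without LEN replicate 3 and 1 without LEN replicate 1 or RUNXi replicate 1. Without the requirement on size, 8 of the 30 genes passed in favour of LEN and 1 in favour of RUNXi. Of all 11241 genes tested, 780 and 766 did so. The 36 others of the 66 listed genes fell below the filter, so these counts leave them out. Among them IFIT3 had 24, 29 and 25 reads in LEN and 3, 2 and 6 in RUNXi. PARP14 had 154, 213 and 214 reads against 79, 86 and 85, while MX2 had 17, 14 and 15 against 18, 16 and 20. These genes were picked after their reads were seen and were not tested.

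The promoter of BST2 is shown because BST2 kept its call without each single library and this stretch carries both interferon motifs. Capitals mark matches on either strand to TTTCNNTTT, the core of the interferon-stimulated response element, and to TTCNNNGAA, the STAT site. The 250 bases come from chr19:17405631-17405880 on the minus strand of GRCh38.p14 (RefSeq).
BST2: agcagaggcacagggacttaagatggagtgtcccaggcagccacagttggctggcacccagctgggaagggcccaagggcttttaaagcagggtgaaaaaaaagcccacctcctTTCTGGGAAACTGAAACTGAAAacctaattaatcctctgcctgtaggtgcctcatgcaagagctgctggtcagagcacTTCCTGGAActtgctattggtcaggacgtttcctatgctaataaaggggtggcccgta
It held 2 matches of each motif, some of them overlapping. TTTCNNTTT was found in 9.28% of all promoters, 5.9% of those of tested genes, 5.45% of those higher in LEN and 7.87% of those higher in RUNXi. TTCNNNGAA was found in 6.78%, 5.53%, 5.45% and 6.74%.

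**Figure D4:**
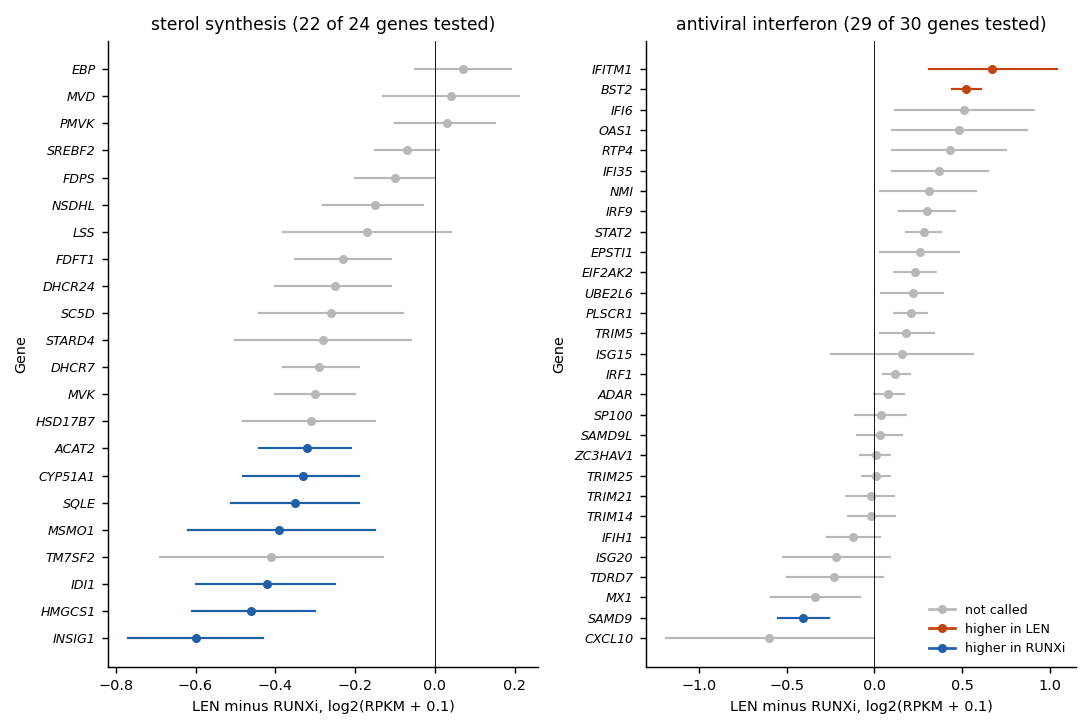
LEN minus RUNXi difference (horizontal axes, log2(RPKM + 0.1)) of 22 of the 24 tested genes of sterol synthesis and 29 of the 30 of the antiviral interferon list, each with its 95% interval from the fit to all samples. Called genes are coloured. The sterol genes lie mostly below 0, by small amounts, and the interferon genes mostly above.

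MHC class II genes did not separate the drugs in any call, and CD74 was above DMSO with either drug. CD74, the invariant chain, was at 57.4, 55.2 and 55.4 RPKM in LEN and 60.0, 56.1 and 59.2 RPKM in RUNXi, with DMSO at a mean of 32.9 RPKM. The log2 difference between the drugs was −0.06 (95% interval −0.19 to 0.06). CIITA, the master activator of these genes, had a difference of −0.11 (95% interval −0.23 to 0.01), and HLA-DRB1 of 0.24 (95% interval −0.06 to 0.55). Of 6 tested genes 0 were called with limma, 2 had an unadjusted p under 0.05 and 0 were called with voom on reads. The share of all genes under that unadjusted p was not computed. Without the requirement on size, 2 of the 6 passed the limma adjusted p of 0.05, both higher in RUNXi. Of all 11241 genes tested, 1546 passed it in either direction. The 11 others of the 17 listed were below the filter, HLA-DRA with 64 to 129 reads per LEN or RUNXi library. In MHC class I, 1 of 11 tested genes was called (9.09%, beside 3.97% of all genes), higher in LEN, and the median of the list was 0.03. HLA genes share sequence, so their values are less certain.

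Other signalling genes separated the drugs in both directions. In the NF-κB and AP-1 list 2 of 26 tested genes were higher in LEN and 2 higher in RUNXi, 15.4% of the list beside 3.97% of all genes. MAF, a transcription factor of plasma cells, was at 7.80, 7.95 and 8.25 RPKM in LEN and 3.94, 4.85 and 4.54 RPKM in RUNXi (1.79-fold, limma adjusted p = 2.9e-05). JUN was higher in LEN by 0.38, a call lost without RUNXi replicate 3 (0.30, limma adjusted p = 0.083) and also without LEN replicate 2 or RUNXi replicate 1. The inhibitor of apoptosis BIRC3, an NF-κB target, was at 62.5 to 72.7 RPKM in LEN and 88.3 to 101 RPKM in RUNXi (log2 difference −0.48, limma adjusted p = 0.0023). RELB, a subunit of non-canonical NF-κB, was 1.29-fold higher in RUNXi and lost its call without RUNXi replicate 2 (log2 difference −0.28). CCR1, the chemokine receptor, was at 103 to 117 RPKM in LEN and 80.5 to 90.7 RPKM in RUNXi (log2 difference 0.39, limma adjusted p = 0.0054). It was the 1 call of 5 tested chemokine genes and receptors, beside 3.97% of all genes. With so few genes tested, and 18 of the 23 listed below the filter, this share says little. CCR1 ran against its list, where 4 of the 5 differences were negative and the median was −0.28.

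The ID and BMP list gave 5 calls among 14 tested genes, all higher in LEN, with a median of 0.17. They are 35.7% of the list, beside 3.97% of all genes called in either direction and 2.73% called higher in LEN. BAMBI, a decoy receptor of TGF-β family ligands, was the firmest, at 18.6 to 20.5 RPKM in LEN and 13.1 to 13.6 RPKM in RUNXi (log2 difference 0.56, limma adjusted p = 1.2e-05). ID1 and ID2, inhibitors of basic helix-loop-helix factors, were both higher in LEN than in RUNXi, but on different sides of DMSO. ID1 was at 18.9 to 19.7 RPKM in LEN, 13.5 to 17.7 RPKM in RUNXi and 28.7 to 31.9 RPKM in DMSO. ID2 was at 33.5 to 40.9 RPKM in LEN, 25.6 to 33.1 RPKM in RUNXi and 19.1 to 23.2 RPKM in DMSO. The calls of ID1 (0.32), ID2 (0.40), BMPR2 (0.53) and SMAD7 (0.33) each depended on single libraries. Without LEN replicate 1, 2 of the 5 calls remained, and without LEN replicate 2 or RUNXi replicate 1 the count was also 2. It was 2 with a pseudocount of 1 or with the 6 LEN and RUNXi samples alone, and 1 where genes with any RPKM above 0 were tested.

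Stress, cell cycle and respiratory chain lists gave 0 to 2 calls each, to be read beside the 3.97% of all genes that were called. The shares were 9.52% for the NRF2 list, 9.09% for ATF4 and 7.14% for heat shock, each on 1 or 2 genes. DNA replication (3.23%) and mitosis (3.57%) were near the share of all genes. In the NRF2 list NQO1 (log2 difference 0.48) and the haem oxygenase HMOX1 (0.45) were called higher in LEN among 21 tested genes. NQO1 was at 33.1 to 33.9 RPKM in LEN and 23.4 to 24.8 RPKM in RUNXi. In the ATF4 list DDIT4, an inhibitor of mTORC1, was 1.5-fold higher in LEN, and CTH, an enzyme of cysteine synthesis, 1.33-fold, the 2 calls among 22. Of 31 tested genes of DNA replication the cyclin CCNE1 was called higher in LEN, at 23.8 to 24.5 RPKM against 18.2 to 20.9 RPKM, and of 28 mitotic genes HMMR was called higher in RUNXi, at 22.6 to 26.7 RPKM against 18.4 to 20 RPKM. CCNE1 was not called without LEN replicate 3 or RUNXi replicates 1 or 2 (0.29 to 0.32). The heat shock factor gene HSF2 was the 1 call among 14 cytosolic heat shock genes, higher in RUNXi by 0.33. It lost the call without RUNXi replicate 3 (−0.30) and also without LEN replicate 2 or RUNXi replicate 1. Of 38 genes of the respiratory chain 0 were called with limma and 0 with voom on reads. An unadjusted p under 0.05 was found for 15 of them, 7 higher in LEN and 8 in RUNXi. The share of all genes under that unadjusted p was not computed.

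Cytosolic ribosomal protein genes moved with a single library. Of 76 tested, 3 were called higher in LEN, RPS10 and RPS29 among them, 3.95% of the list beside 3.97% of all genes. RPS10 was at 6.78, 7.20 and 6.16 RPKM in LEN and 2.59, 5.54 and 2.85 RPKM in RUNXi, where replicate 2 stood near the LEN values. RPS29 showed the same, at 62.4, 87.9 and 58.1 RPKM in RUNXi. Without RUNXi replicate 2 the calls rose to 12 higher in LEN and 1 higher in RUNXi. Without RUNXi replicate 1 or 3, or LEN replicate 1 or 2, 0 calls were left in limma. Ribosomal protein genes have many near-identical pseudogene copies that can take reads, so these values are uncertain.

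**Figure D5:**
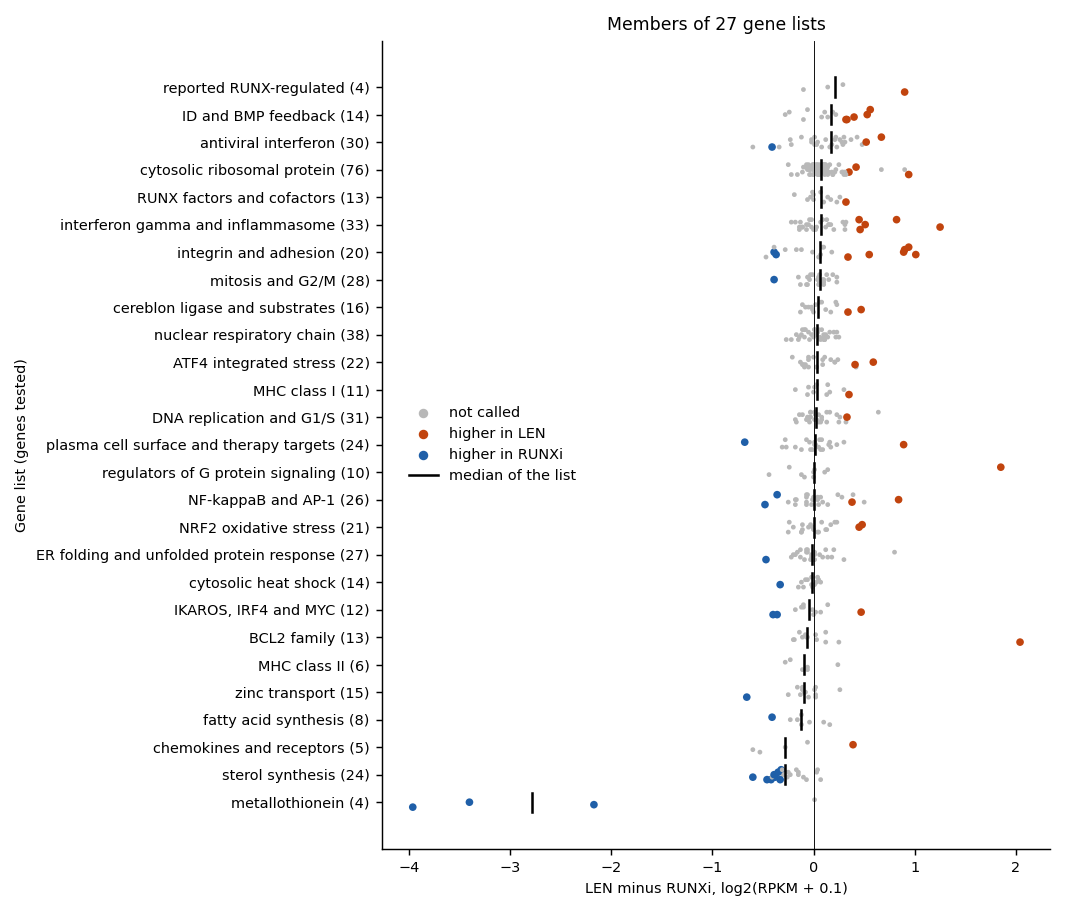
LEN minus RUNXi difference (horizontal axis, log2(RPKM + 0.1)) of every tested member of 27 gene lists (vertical axis, with the number tested), ordered by the median of the list, which is drawn as a bar. Called members are coloured. Most medians lie near 0, the metallothionein median is at −2.78 and the sterol median at −0.28.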

How the data were processed

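Poly(A) RNA of OPM-1 cells was sequenced in 3 biological replicates of each of 4 groups, 12 samples. The authors used STAR and GRCh38 for alignment, counted reads on genes and deposited RPKM values with the gene lengths used; the counting annotation and strand setting are not given in the sources used here. The plan assumed FPKM or RPKM, and the header names RPKM. Whole reads were computed back for 100% of the values (tolerance 0.01 read). Intervals and floors on reads cover counting error only, since reads are not independent molecules.

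Genes averaging 0.5 RPKM or more were fitted on the log2(RPKM + 0.1) scale with limma 3.58.1 (R 4.3.3), with all 12 samples, 1 mean per group, a variance trend and Benjamini-Hochberg adjustment over the 11241 genes. A call required an adjusted p no higher than 0.05 and a log2 difference of 0.32 or more in size. Named genes are list members and, per direction, the 15 largest called differences without overlap. The comparison, its 27 gene lists and thresholds were chosen with earlier results of these data known. Genes outside the rule are said to be so. The results of some named genes are not reported here.

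Alternatives were pseudocounts of 1 and 0.01, other filters, median-ratio and quantile scaling, the 6 compared samples alone, a replicate block, no variance trend, no size or a 1.5-fold size, voom on reads, and leaving out each library; a mean of at least 10 reads was added after seeing the data. The fit was tested on simulated data. Gene positions are from GENCODE 44 and promoters from RefSeq (GRCh38.p14), matched by symbol for 8088 tested genes. Tables were handled with Python 3.11.15 and pandas 2.3.3. Of the gene names, 28 are spreadsheet date numbers. No sample was left out.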

Additional observations from a re-analysis of the deposited data

How the results depend on the processing

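The counts of 307 genes higher in LEN and 139 higher in RUNXi stayed within 1.5 times under most alternatives, with 240 to 334 and 119 to 163 calls under a pseudocount of 0.01, other filters, median-ratio rescaling, quantile normalization, the 6 samples alone, no variance trend and voom on reads. A pseudocount of 1 gave 207 and 92, since it shrinks differences of weakly expressed genes. Without a required size 780 and 766 genes passed, so the excess in favour of LEN rests on the size required, and with at least 1.5-fold 101 and 31 passed. Leaving out each library gave 221 to 477 and 89 to 215, the highest without RUNXi replicate 2 and the lowest without RUNXi replicate 1; the cause was not tested. A mean of at least 10 reads, added after seeing the data, gave 321 and 149. With the replicate number as a block the counts were 325 and 154. LEN and RUNXi samples of the same number deviated together at r of 0.0898, 0.155 and 0.047, not all above 0.1, so they were taken to share only a number, although each LEN sample correlated best with its own number. Of 83 named calls, leaving aside the 1.5-fold size, 41 held in every setting, 6 held where tested but fell under 1 of the stricter filters and were not tested there, 36 were lost in at least 1 setting, and 0 changed sign. Genes on fewer than 10 reads per library cannot be ranked by size of difference, and calls near the required 0.32 crossed it with single libraries.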

Other observations

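Outside the lists, further genes with a known role separated the drugs. All genes in this and the next paragraph were chosen after their values were seen. GALM, the aldose mutarotase that feeds galactose into its breakdown pathway, was at 82.7, 81.5 and 79.3 RPKM in LEN and 39.0, 40.4 and 40.4 RPKM in RUNXi (2.03-fold, limma adjusted p = 6.7e-09). DMSO was at 71.1 to 76.4 RPKM, so the wider gap was between DMSO and RUNXi. TRPM8, a cold-sensing cation channel, was at 9.99 to 10.7 RPKM in LEN and 5.35 to 5.51 RPKM in RUNXi. The receptors P2RY6 and P2RX4, which bind extracellular nucleotides, were 2.07-fold and 1.67-fold higher in LEN. LACC1, an immune-cell enzyme of purine metabolism, was 2.10-fold higher, and LGALS1, the lectin galectin-1, 1.72-fold. For these 6 genes the LEN samples all lay above the RUNXi samples. TCN2, which carries vitamin B12, and BLVRA, which turns biliverdin into bilirubin, were near DMSO in RUNXi and higher in LEN. TCN2 was at 40.1 to 44.4 RPKM in LEN, 22.6 to 25.2 RPKM in RUNXi and 23.4 to 27.2 RPKM in DMSO.

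In the other direction, AQP3, a channel for water and glycerol, was at 83.0, 90.5 and 93.3 RPKM in LEN and 122, 138 and 134 RPKM in RUNXi (log2 difference −0.56, limma adjusted p = 9.9e-05), with DMSO between them at 106 to 110 RPKM. PIK3AP1, an adaptor of PI3K signalling in B cells, was at 5.61 to 6.16 RPKM in LEN and 8.48 to 9.90 RPKM in RUNXi (log2 difference −0.68, limma adjusted p = 5.1e-05). POU3F2, a transcription factor best known from neurons, was at 12 to 12.8 RPKM in LEN and 18.5 to 19.6 RPKM in RUNXi (log2 difference −0.60, limma adjusted p = 4.6e-05). With both drugs PIK3AP1 was at 6.29 to 6.70 RPKM and POU3F2 at 15.5 to 17.0 RPKM, below every RUNXi sample.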
